A study of Mus musculus with 54 samples.

Results

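The change in the retina of wild-type mice between postnatal days (PN) 5 and 6 and PN8 and 9 was followed across 18193 genes with an annotated symbol. The comparison used 10 of the 54 arrays of the series, chosen by their labels and not by any measured value: 2 arrays at PN5 and 2 at PN6 formed the early group, and 3 at PN8 and 3 at PN9 the late group. All were neural retinas of C3H mice of the wild-type genotype (WT). C3H retinas homozygous for rd1, a mutation of the rod phosphodiesterase gene Pde6b that leads to loss of rods, gave 4 early and 6 late arrays of the same ages. WT at PN7 (3 arrays), WT at PN11 to PN13 (8 arrays) and WT at PN15 and PN21 (4 arrays) placed the changes in time. The labels call the arrays biological replicates without saying how many animals each holds, so that p-values measure the spread between these arrays.

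In the mouse retina, progenitor cells divide until about the end of the first week after birth, and their last divisions give rods, bipolar cells and Müller glia. Cones, horizontal, amacrine and ganglion cells are born earlier. Rods then build an outer segment, a stack of membrane discs that holds the cascade turning light into a change of membrane voltage, and a ribbon synapse that passes the signal to bipolar cells. The comparison asks which genes change as division ends and these late-born cells mature.

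Values are log2 of the deposited intensity, and differences are late minus early on that scale with the standard error of the fit after the sign ±. A gene is said to have risen or fallen where the adjusted p of limma over all genes was under 0.05. Of the 18193 genes, 4585 rose (25.2%) and 3388 fell (18.6%), 43.8% together (51.4% at an unadjusted p under 0.05), with a median difference over all genes of 0.0656. With so many genes called, the counts for gene groups are set against these shares. Most changes were small, with a median size of 0.281 among called genes, and 159 genes rose (0.874%) and 182 fell (1%) by at least 2-fold. The arrays of the groups did not overlap for 2830 genes that were higher (15.6%) and 2530 that were lower (13.9%). How many genes fell on each side depended on the scaling: quantile normalization gave 3537 rises and 3609 falls, and centring each array on amacrine and ganglion cell genes gave 2486 and 4428. In whole tissue, fewer cells of a type and less RNA per cell cannot be told apart.

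Replicate arrays of WT at PN5 to PN9 correlated at r = 0.991 to 0.997 over genes, which are not independent replicates. The late array WT PN8 replicate 3 stood apart from the other 5 late arrays. The mean log2 level of its rod phototransduction genes was 10.41, against 10.98 to 11.14 in the other late arrays, and that of its progenitor genes 9.30 against 9.01 to 9.08. These means lay near those of the rd1 PN8 arrays, 10.55 to 10.59 and 9.24 to 9.39. Pde6b, the gene mutated in rd1, did not: it read 12.55 in this array and 12.74 to 12.84 in the other late WT arrays. The late rd1 arrays read 10.81 to 11.32. What set this array apart was not tested. Without this array 8288 genes were called in place of 7973, and a late group of PN9 alone gave 6915. WT PN7 replicate 3 held lens transcripts, with a lens list mean of 12.53 against 6.11 and 6.25 in the other PN7 arrays, while in the 10 arrays compared it lay between 6.09 and 6.65. Retinal identity was checked with rod and glial genes: Nrl read 12.94 to 13.30, Crx 12.20 to 12.48 and Rlbp1 11.11 to 11.50 in all 10 arrays.

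**Figure D1:**
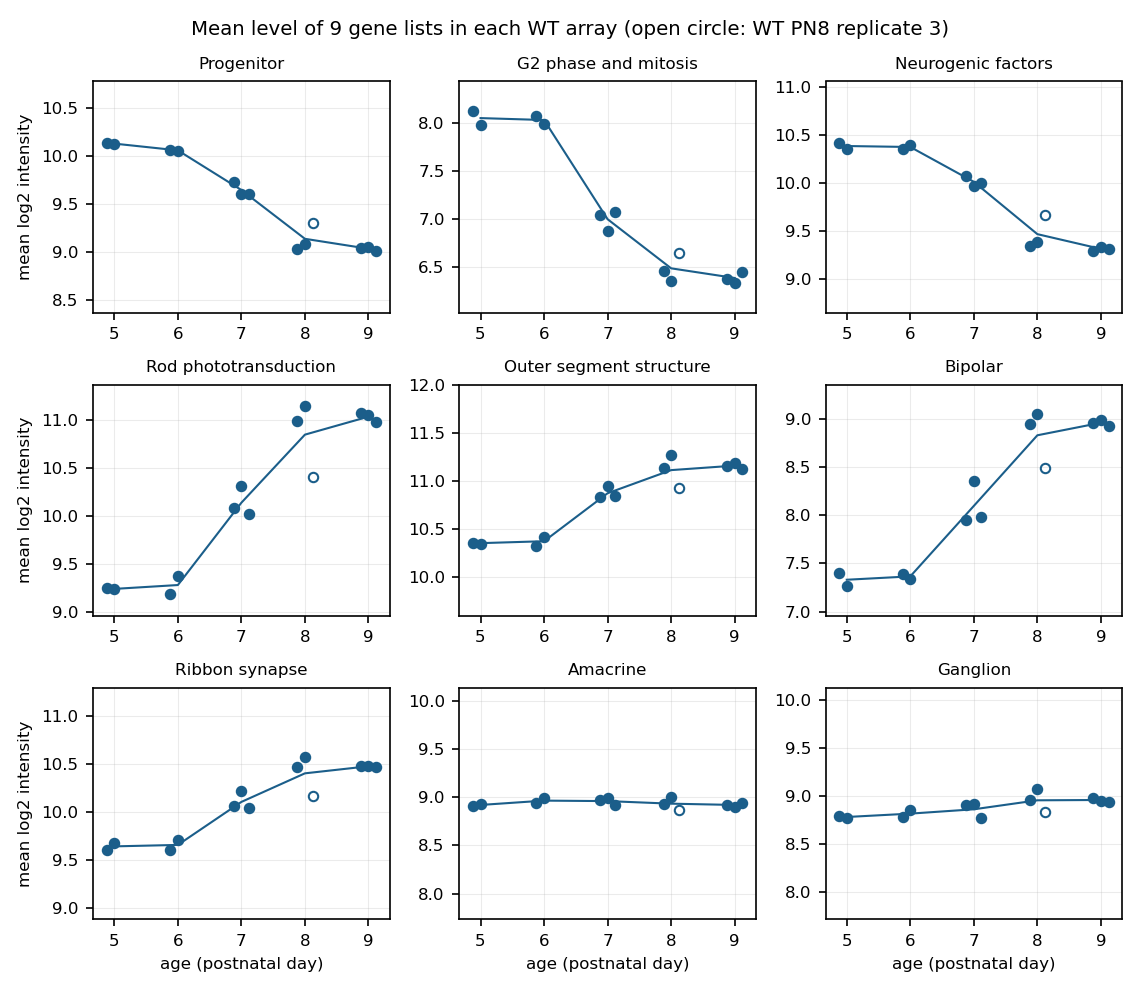
Mean log2 intensity (y) of 9 gene lists in each WT array from PN5 to PN9 against age in postnatal days (x), every panel spanning the same range; filled points are arrays, the open circle is WT PN8 replicate 3 and the line joins the means per age. Division and neurogenic genes drop after PN6 and rod, bipolar and synapse genes climb, whereas the amacrine and ganglion means stay within 8.77 to 9.07.

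Genes of dividing cells fell. Of 30 genes of G2 phase and mitosis, 29 fell and none rose, with a median difference of -1.46, and 28 of the 29 had early and late arrays that did not overlap. Without the dimmest 30% of genes, which leaves fewer members, 18 fell. Of 30 genes of DNA replication and S phase, 25 fell and none rose (median -0.72). The shares of all genes that fell and rose are those given above. The member that was not called in the mitotic list, Tpx2, a spindle assembly factor, differed by 0.10 (adjusted p = 0.469).

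Mki67, the proliferation marker Ki-67 that coats mitotic chromosomes, read 10.55 and 10.27 at PN5, 10.39 and 10.44 at PN6, and 6.48 to 7.59 with a median of 6.65 in the late arrays. The groups were far apart, the highest late array being WT PN8 replicate 3. The difference was -3.63 ± 0.13 (adjusted p = 2.4e-23), the largest fall of any gene. Top2a, the topoisomerase that untangles replicated chromosomes, read 9.69, 9.65, 9.74 and 9.38 early and 6.23 to 7.02 late (median 6.46), a fall of 3.09 ± 0.12 and 8.50-fold. Its other probe sets differed by -0.90 and 0.29, so that the size rests on the probe set with the highest mean. Birc5, the survivin subunit of the chromosomal passenger complex, was at 8.38 to 8.44 early and 5.18 to 5.91 late, and its partner Cdca8, borealin, fell by 2.80 ± 0.11. Further falls among the 10 largest were those of the mitotic kinase Pbk (-3.12), the kinetochore protein Cenpf (-3.04), the abscission factor Cep55 (-2.71), the spindle protein Nusap1 (-2.62), the Cdk-binding protein Cks2 (-2.41) and securin, Pttg1 (-2.35). Several of these sizes rest on the probe set with the highest mean. Other probe sets differed by -0.23 and -0.78 for Cenpf, -0.81 for Cep55 and -0.33 for Nusap1. For Pttg1 they differed by -0.26 and -2.15, and for Cks2 by -2.4. Cdk1, the kinase that drives mitosis, fell by 2.23 ± 0.11.

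Among replication genes Rrm2, the ribonucleotide reductase subunit that is made in S phase, fell most, by 1.66 ± 0.10 (other probe sets -3.43 and -3.28), from 7.66 to 7.87 in the early arrays to 5.94 to 6.37 in the late ones. The Mcm2 to Mcm7 subunits of the replicative helicase fell by 0.64 (Mcm3) to 1.39 (Mcm6). Other probe sets differed by -2.04 and -0.03 for Mcm6 and by -0.31 and -1.23 for Mcm5. Pcna, the sliding clamp, fell by 0.54. The replication genes that were not called were Gins2 (-0.10), Ccne1 (-0.10), Cdc45 (0.03), Chaf1b (0.04) and Orc1 (0.16). On the probe set with the highest mean for each gene, median falls were thus larger for mitotic than for replication genes. That difference was not tested.

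Genes that brake the cell cycle did not rise. Of 10 such genes 6 fell and none rose (median -0.41). Rbl1, the p107 pocket protein, fell by 1.31 ± 0.07, and Cdkn2c, the Cdk4 inhibitor p18, by 1.16 ± 0.08, from 9.61 to 9.77 in every early array to 8.32 to 8.69 late. Cdkn1b, p27, fell by 0.73 ± 0.09. Cdkn1c, p57, differed by 0.08 ± 0.06 (adjusted p = 0.303) and its groups overlapped. Cdkn2c and Cdkn1b were higher again at PN15 and PN21 than at PN11 to PN13, by 0.78 and 0.29.

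Progenitor identity genes fell throughout: 15 of 15 measured, with a median of -0.78, and 14 of them without overlap between the groups. Ccnd1, the cyclin D on which retinal progenitors depend, read 12.15 and 11.99 at PN5, 12.09 and 12.17 at PN6, and 9.47 to 10.52 late with a median of 9.73. The only late array above 9.77 was WT PN8 replicate 3. Ccnd1 thus fell by 2.28 ± 0.11 (adjusted p = 4.52e-20). Fgf15, a growth factor of progenitors, fell by 1.77 ± 0.09, Sfrp2, a secreted Wnt modulator, by 1.72 ± 0.11, and the Notch target Hes5 by 1.46 ± 0.10. The receptor Notch1 fell by 1.25 ± 0.06 and the transcription factors Sox2, Lhx2, Six6 and Rax by 1.20, 0.74, 0.62 and 0.59. Six3, which also marks some mature neurons, fell least, by 0.30.

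Factors of newly born neurons followed. Of 15 neurogenic genes 14 fell and none rose (median -0.97). Dll3, a Notch ligand of differentiating cells, read 9.94, 10.05, 9.94 and 9.91 early and 7.96 to 8.67 late (median 8.03), a fall of 1.81 ± 0.10. Gadd45g, made as cells leave the cycle, and Hes6, an inhibitor of Hes1, each fell by 1.63, and Neurog2, a proneural factor, by 1.42 ± 0.11. Neurod1, which photoreceptors keep, fell by 0.26. Atoh7, the factor of ganglion cell birth, differed by -0.01 (adjusted p = 0.967) and overlapped. Genes of immature neurons and neurite growth were divided, with 3 of 15 rising and 6 falling (median -0.10): Tubb2b, Dcx and Marcksl1 fell by 0.53, 0.50 and 0.39, and the neurite gene Crmp1 rose by 0.17. In the later WT interval, PN15 and PN21 against PN11 to PN13, in which 11.5% of all genes rose and 13.6% fell, 13 of these 15 fell and none rose (median -0.30), Tubb2b by 1.43 and Dcx by 1.13.

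**Figure D2:**
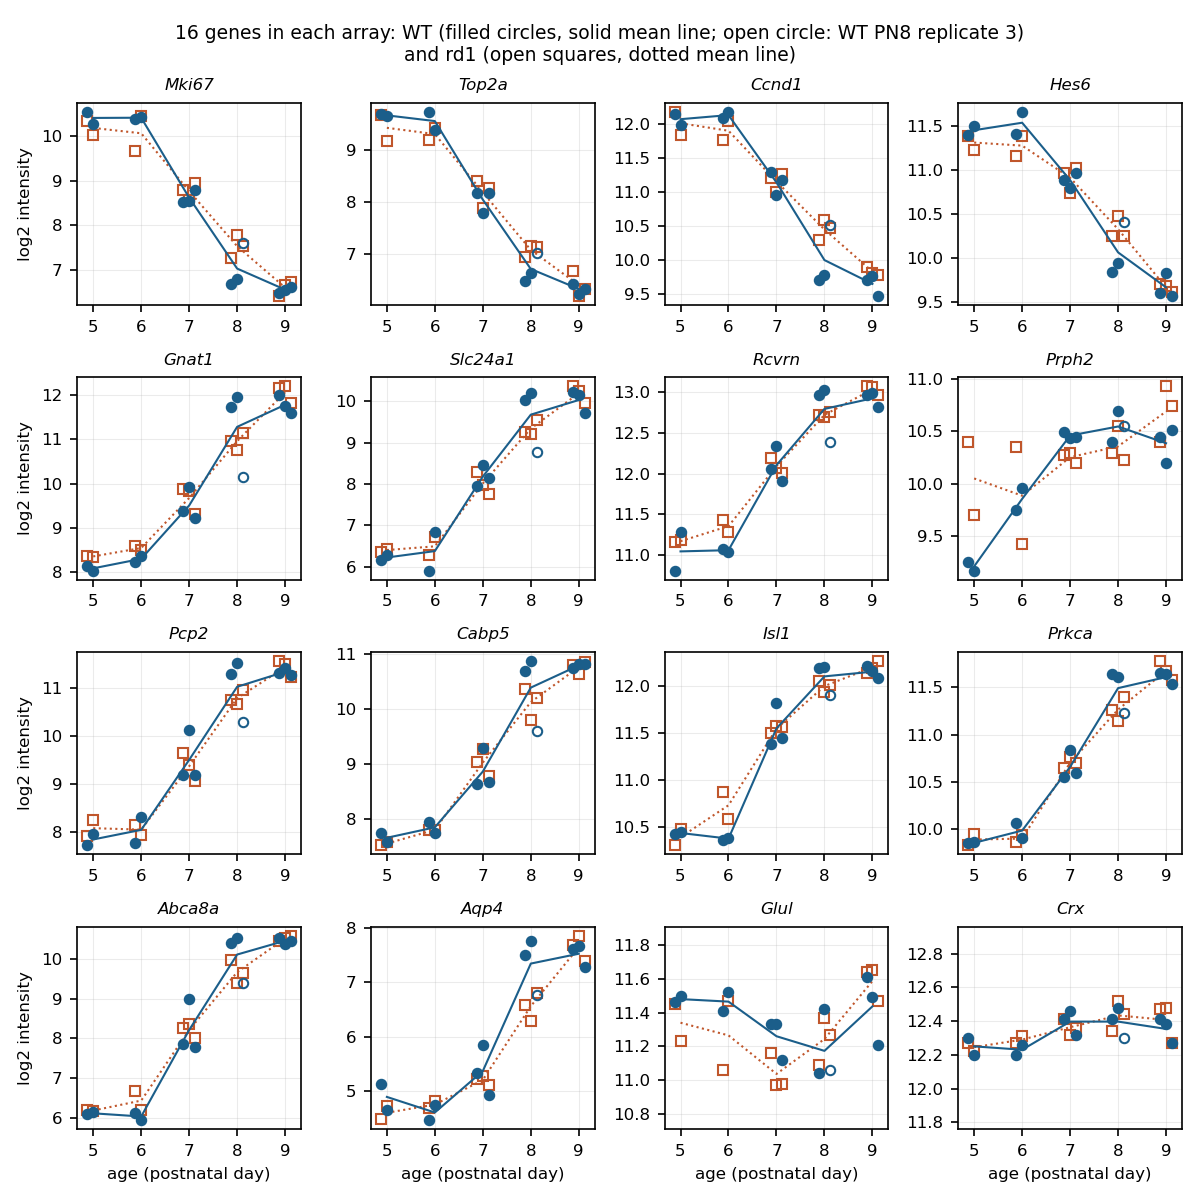
Log2 intensity (y) of 16 genes in every WT array (circles, solid line through the means) and every rd1 array (squares, dotted line) against age in postnatal days (x); axes differ between panels and the open circle is WT PN8 replicate 3. Mki67 leaves 10.27 to 10.55 for 6.48 to 7.59 and Gnat1 8.03 to 8.37 for 10.15 to 12.01 in WT. Glul and Crx shift by under 0.2 in the probe sets drawn.

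Rod phototransduction genes rose without exception. All 12 measured members rose (median 1.27), with no overlap between the groups in any of them. Gnat1, the rod transducin alpha subunit that rhodopsin activates, read 8.13 and 8.03 at PN5, 8.22 and 8.37 at PN6, and 10.15 to 12.01 late with a median of 11.74. Every late array lay above every early one, and WT PN8 replicate 3 was the lowest late array by more than 1 log2 unit. The rise was 3.34 ± 0.18 (adjusted p = 1.47e-18). Slc24a1, the rod sodium-calcium exchanger, rose by 3.55 ± 0.17 or 11.7-fold, from 5.91 to 6.85 early to 8.78 to 10.22 late. Within the phosphodiesterase the subunits did not move alike: Pde6a, the alpha subunit, rose by 2.63 ± 0.15, Pde6g, the inhibitory gamma subunit, by 1.37 ± 0.06, and Pde6b, the beta subunit, by 0.99 ± 0.13. Pde6b was already at 11.72 to 11.88 early. Cnga1 and Cngb1, the cyclic nucleotide-gated channel, rose by 1.17 and 1.16, and Gnb1, the transducin beta subunit, by 0.56.

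Genes of the cascade and its recovery that rods and cones share rose in 11 of 12 cases (median 1.04). Rcvrn, recoverin, which restrains the rhodopsin kinase, rose by 1.81 ± 0.09 from 10.81, 11.28, 11.08 and 11.04 to 12.39 to 13.03 (median 12.96). The RGS9 anchor Rgs9bp rose by 1.60, the phosphodiesterase chaperone Aipl1 by 1.58 ± 0.09, Guca1b, which activates guanylate cyclase, by 1.29, and the kinase Grk1 by 1.10. Sag, arrestin, rose by 0.97, its early arrays being already at 12.95 to 13.16. Pdc, phosducin, at 13.07 to 13.23 early and 13.13 to 13.37 late, was not called (0.13 ± 0.06, adjusted p = 0.0585).

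Outer segment genes rose in 12 of 12 cases (median 0.71). Impg1, a proteoglycan of the matrix around outer segments, rose by 1.73 ± 0.12 and Abca4, the retinoid flippase of disc membranes, by 1.00 ± 0.07. Prph2, peripherin, which shapes the disc rim, read 9.25 and 9.17 at PN5, 9.75 and 9.96 at PN6, and 10.20 to 10.69 late (median 10.48). Its PN7 arrays, 10.44 to 10.49, already lay in the late range, and the rise was 0.93 ± 0.13. Rom1, its partner in the rim, rose by 0.78, and Fscn2, an actin bundler of photoreceptors, by 0.84. Rdh12, which reduces retinal set free by light, rose by 1.64, whereas Elovl2, which elongates polyunsaturated fatty acids, fell by 0.44. Cilium transport genes rose in 15 of 22 cases and fell in 2 (median 0.18; 10 and 2 after centring), with the Bardet-Biedl genes Bbs5, Bbs9 and Bbs7 highest at 0.70, 0.63 and 0.62, and the cilium genes Rp2 and Rpgr falling by 0.62 and 0.46.

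The transcription factors that specify photoreceptors were divided, with 6 of 13 rising and 6 falling (median -0.09; 4 rises and 6 falls under quantile normalization). Esrrb, a nuclear receptor of rods, rose by 1.89 ± 0.12, although its other probe sets differed by 0.26 and 0.97. Nrl, the factor that commits a cell to the rod fate, rose by 0.25 ± 0.05, from 12.94 to 13.03 to 13.19 to 13.30. Crx, which acts with it, differed by 0.13 ± 0.05 (adjusted p = 0.0269), with overlapping arrays, and was not called after quantile normalization (0.111) or centring (0.375). The other Crx probe set, nearly as bright (mean 12.0 against 12.18 over all arrays), differed by 0.34. The size of the Crx change thus depends on the probe set. Otx2, which acts before Nrl and Crx, fell by 0.59 ± 0.06, from 12.84 to 12.94 early to 12.14 to 12.53 late. Prdm1, which keeps photoreceptor precursors from the bipolar fate, fell by 0.81 ± 0.06 and again by 0.77 in the later interval.

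Cone genes rose in 9 of 13 cases and fell in 3 (median 0.59). Opn1mw, the medium-wavelength opsin, rose by 2.04 ± 0.17, from 5.90 and 6.42 at PN5 and 5.59 and 6.02 at PN6 to 6.80 to 8.42 (median 8.20). WT PN8 replicate 3 gave the value of 6.80, and the other late arrays were at 8.15 or above. Opn1sw, the short-wavelength opsin that comes earlier in mouse cones, rose by 0.50 ± 0.06, from 10.99 to 11.06 in the early arrays to 11.19 to 11.66. Cone arrestin, Arr3, rose by 1.03 ± 0.09 and the potassium channel subunit Kcne2 by 1.21. Ccdc136, Rxrg and Cngb3 fell by 0.74, 0.32 and 0.31; Rxrg is a nuclear receptor of immature cones and Cngb3 a subunit of the cone channel. Gngt2, a cone transducin subunit, differed by -0.12 (adjusted p = 0.149).

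Ribbon synapse genes rose in 11 of 14 cases and none fell (median 0.66). Cabp4, the calcium-binding partner of the photoreceptor calcium channel, rose by 2.65 ± 0.15 from 5.21 to 6.55 to 7.63 to 8.84 (median 8.57). The channel subunit Cacna1f rose by 1.15. Slc17a7, the vesicular glutamate transporter, rose by 1.79 ± 0.11 and Cplx4, a complexin of ribbon synapses, by 1.65 ± 0.09. The ribbon gene Ctbp2 differed by -0.10 (adjusted p = 0.129) and Pclo, the cytomatrix protein piccolo, by 0.06 (adjusted p = 0.442). General synaptic vesicle genes rose in 12 of 15 cases and fell in 1, with a smaller median of 0.46.

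Bipolar genes rose in 19 of 20 cases and fell in 1 (median 1.54, the highest of the 34 lists). Pcp2, a modulator of Go signalling in ON bipolar cells, read 7.73 and 7.97 at PN5, 7.78 and 8.32 at PN6, and 10.29 to 11.52 late with a median of 11.31. All but WT PN8 replicate 3 were at 11.28 or above, and the rise was 3.24 ± 0.15 or 9.43-fold (adjusted p = 3.57e-20). Cabp5, a calcium sensor of bipolar cells, rose by 2.84 ± 0.14 from 7.58 to 7.95 to 9.61 to 10.88. Car8, a carbonic anhydrase-related protein, rose by 3.19 ± 0.17 and the G protein subunit Gng13 by 2.53; their other probe sets differed by 0.30 and 0.15, and by 0.24. Prkca, the protein kinase C that marks rod bipolar cells, rose by 1.63 ± 0.06 and Isl1, the homeodomain factor of ON bipolar cells, by 1.72 ± 0.06, from 10.37 to 10.45 to 11.91 to 12.22. Trpm1, the channel of the ON response, rose by 0.71 ± 0.10. Tacr3, the neurokinin receptor of an OFF type, fell by 0.39 with overlapping arrays, and rose by 0.72 in the later interval.

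Genes of neurons born before PN5 were divided. Amacrine genes rose in 8 and fell in 5 of 17 cases (median 0.03). Calb2, calretinin, rose by 0.60 ± 0.06, and Ptf1a, which specifies amacrine and horizontal cells, fell by 1.16 ± 0.08. Ganglion genes rose in 8 and fell in 6 of 16 cases (median 0.14). There the neurofilament gene Nefh and the surface protein Thy1 rose by 1.12 and 0.64, and the transcription factors Eomes and Pou4f1 fell by 0.48 and 0.31. Horizontal genes rose in 5 and fell in 1 of 7 cases (3 and 1 after either rescaling). Calb1, calbindin, rose by 1.38 ± 0.08 and its other probe sets by 0.21 to 0.52, and Onecut2 fell by 0.87 ± 0.10.

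Müller glial genes moved apart: 9 of 18 rose and 5 fell (median 0.15). Abca8a, an ABC transporter, had the largest rise of any gene. It read 6.09 and 6.14 at PN5, 6.12 and 5.95 at PN6, and 9.40 to 10.53 late with a median of 10.43. The rise was 4.20 ± 0.16 or 18.4-fold (adjusted p = 3.16e-23). Aqp4, the glial water channel, read 5.14, 4.66, 4.48 and 4.75 early and 6.77 to 7.76 late (2.67 ± 0.14; other probe sets 1.94 and 0.31). Clu, clusterin, rose by 1.20 ± 0.10. The glial enzyme Glul, glutamine synthetase, at 11.41 to 11.52 early and 11.04 to 11.61 late, was not called (-0.17 ± 0.08, adjusted p = 0.0973; -0.24 and 0.0105 after centring). Rlbp1, the retinaldehyde-binding protein, was not called either (-0.13 ± 0.08, adjusted p = 0.159). Sox9, shared by progenitors and Müller glia, fell by 0.91 ± 0.09. Among astrocyte genes Gfap rose by 0.60 and Fabp7, also a progenitor gene, fell by 1.20.

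Vessel genes rose in 17 of 20 cases and fell in 2 (median 0.41). Cldn5, the tight junction claudin of the blood-retina barrier, read 7.67 to 7.89 early and 8.46 to 8.84 late (0.92 ± 0.08), and the apelin receptor Aplnr rose by 0.91 ± 0.09. Kdr, the VEGF receptor that retinal neurons and progenitors also express, fell by 0.23. In the later interval 8 of these 20 genes fell and 1 rose (13.6% and 11.5% of all genes), Aplnr falling by 1.22. Microglial genes rose in 7 and fell in 1 of 19 cases (median 0.14), led by Ly86 at 0.39. After centring 2 rose, and 4 rose under quantile normalization or without WT PN5 replicate 1, WT PN6 replicate 2 or WT PN9 replicate 3.

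Metabolic genes showed small shifts in opposite directions. Glycolysis genes rose in 11 of 15 cases and none fell (median 0.23; 6 without WT PN6 replicate 1; 7 rises and 1 fall after centring). Hk1, the hexokinase of neurons, rose by 1.02 ± 0.06 and Aldoc, brain aldolase, by 1.25 ± 0.09, whereas Hk2, the hexokinase of photoreceptors, rose by 0.23 here and by 1.98 in the later interval. Ldha, the lactate dehydrogenase subunit, differed by -0.01 (adjusted p = 0.887). Oxidative phosphorylation genes rose in 18 of 27 cases (median 0.18; 12 rises and 2 falls after centring). At PN7 16 members were already called higher (9.91% of all genes), and 13 fell in the later interval (13.6% of all genes). Cytosolic ribosome genes fell in 10 of 13 cases (median -0.24), led by Rps6 and Rps19 at -0.56 and -0.55. Proteasome core genes fell in 7 of 14 cases (median -0.11; 4 without WT PN5 replicate 2 or WT PN6 replicate 2), led by Psma5 at -0.35 ± 0.06. Cholesterol synthesis genes rose in 3 of 16 cases (median -0.02; 1 rise and 5 falls after centring).

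Cell death genes rose in 2 and fell in 6 of 16 cases (median -0.10). Apaf1, the scaffold of the apoptosome, fell by 0.68 ± 0.07, from 8.51 to 8.64 to 7.76 to 7.97, and the BH3-only gene Bcl2l11 by 0.58. Bmf, another BH3-only gene, rose by 0.64 ± 0.07. The genes of the apoptotic pathway thus did not share a direction.

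**Figure D3:**
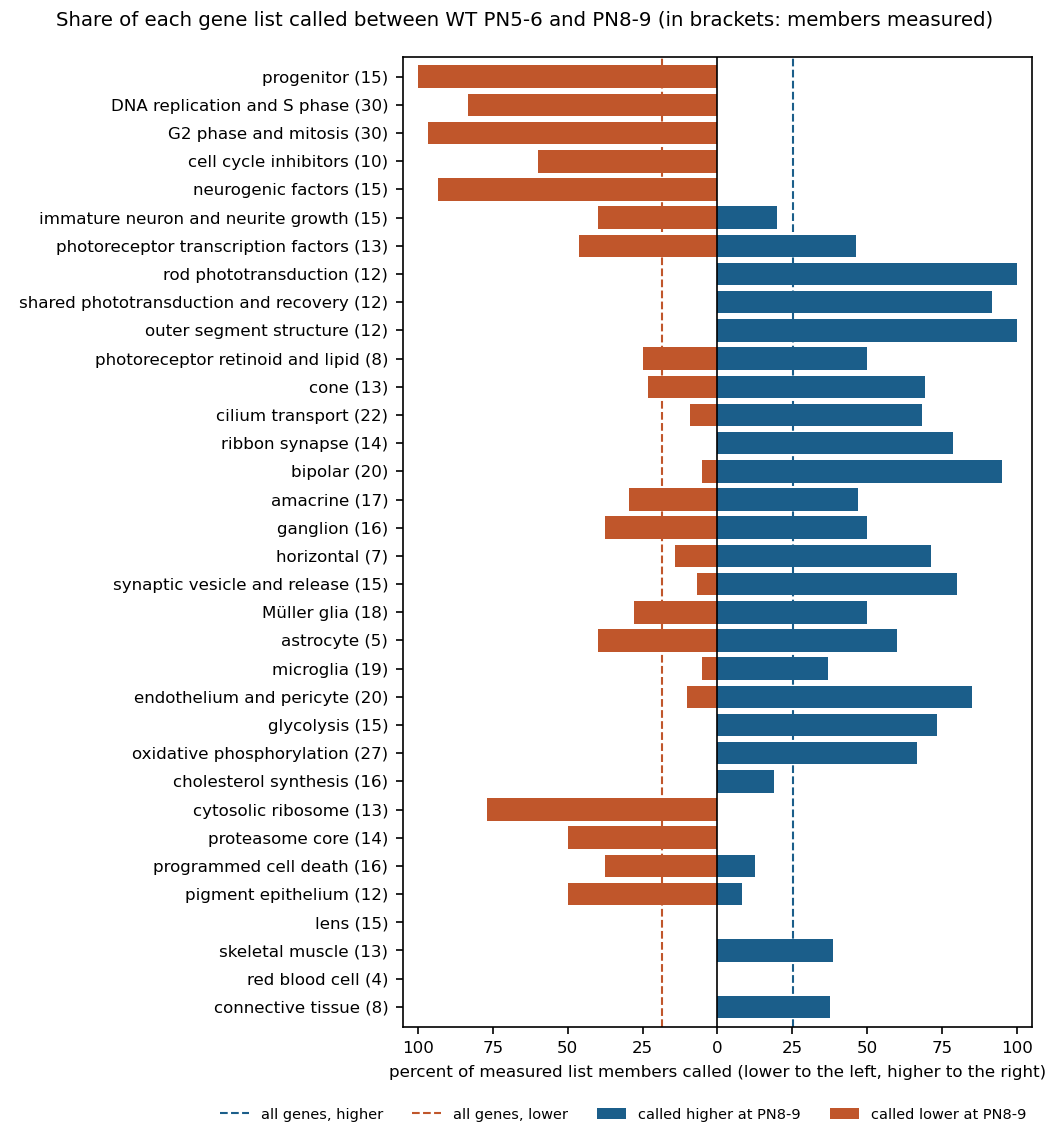
Percent of the measured members of each of the 34 gene lists (y, member number in brackets) that fell (left) or rose (right) between WT PN5-6 and PN8-9, with dashed lines at the 18.6% and 25.2% of all genes that did. Division, progenitor and neurogenic lists lie far to the left and photoreceptor, bipolar, synapse and vessel lists far to the right; lens and red blood cell lists have no called member.

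Markers of tissues around the retina were followed because dissection can vary. Lens and red blood cell lists had no called gene (15 and 4 measured; 4 lens genes when the compared arrays were fitted alone, and 1 red cell gene without WT PN8 replicate 3). Pigment epithelium genes fell in 6 and rose in 1 of 12 cases, with list means of 6.89 to 7.13 early and 6.46 to 6.99 late; 2 fell against PN9 alone or without WT PN5 replicate 1, WT PN6 replicate 2 or WT PN8 replicate 1, 3 without WT PN9 replicate 1 and 4 without WT PN6 replicate 1. Tyrp1, an enzyme of melanin synthesis, fell by 1.14 ± 0.12, and Rpe65, the visual cycle isomerase, differed by 0.04 (adjusted p = 0.871). Muscle genes rose in 5 of 13 cases (list means 5.79 to 5.96 early, 5.91 to 6.16 late) and connective tissue genes in 3 of 8, led by the collagen Col1a2 at 1.14. Their part in the other results was not tested.

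The change was not spread evenly over the days. PN6 against PN5 gave 0 calls in limma (458 genes, 2.52%, at an unadjusted p under 0.05; 4 calls without WT PN6 replicate 1), and PN9 against PN8 gave 0 (486 genes, 2.67%). PN7 against PN5 and PN6 gave 1803 rises (9.91%) and 894 falls (4.91%), and PN8 and PN9 against PN7 gave 1001 rises (5.5%) and 1775 falls (9.76%). These counts were 1634 in all without WT PN7 replicate 2 and 1786 without WT PN7 replicate 1, and the days differ in their number of arrays. Among the 159 genes with rises of at least 2-fold, the median WT step was 0.00 from PN5 to PN6, 0.72 to PN7, 0.57 to PN8 and 0.14 to PN9. Without WT PN8 replicate 3 the steps to PN8 and PN9 were 0.74 and -0.03. The 182 genes with falls of that size gave -0.07, -0.69, -0.57 and -0.11, and without that array -0.67 and -0.01 for the steps to PN8 and PN9. The WT arrays chose these genes, so the steps to PN7 and PN8 are a description. The rd1 arrays, which had no part in the choice, gave 0.13, 0.51, 0.47 and 0.28 for the rises and -0.08, -0.55, -0.41 and -0.24 for the falls. In both genotypes the steps to PN7 and PN8 were the largest of the 4, whereas the step from PN8 to PN9 was larger in rd1 than in WT, a difference that was not tested and is wider without WT PN8 replicate 3.

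PN7 lay between the groups for 158 of the 159 rises and 182 of the 182 falls. These genes were chosen for the distance between the groups, which favours this, so the counts are a description. The exception was the crystallin gene Cryab, with a mean of 9.82 at PN7 against 8.79 late. Its PN7 arrays ranged from 7.95 to 13.06. By PN7 the mean of the mitotic list had made 65.0% of its whole change, from 7.98 to 8.12 early to 6.88 to 7.08 at PN7. The outer segment list had made 65.8%, rod phototransduction 52.2%, bipolar 48.6%, progenitor 44.4% and neurogenic genes 36.9%. These shares were not tested against each other. A test of PN7 against the midpoint of both groups, added after the data were seen, called 95 genes (0.522%). The count was 8 without WT PN7 replicate 3, the array with lens transcripts. It was also 54 without WT PN5 replicate 2, 23 without WT PN6 replicate 1, 152 without WT PN6 replicate 2 and 53 without WT PN9 replicate 1.

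Most genes with changes of at least 2-fold went further the same way between PN9 and PN11. From PN9 to PN11 the median WT step was 0.53 for the rises of at least 2-fold, 150 of 159 going up, and -0.20 for the falls, 158 of 182 going down. Over all 18193 genes the median was -0.03, with 7640 going up and 10553 going down. This step was not tested. The later interval, PN15 and PN21 against PN11 to PN13, leaves that step out and shares no array with the comparison of PN5-6 with PN8-9. In it 11.5% of all genes rose and 13.6% fell. Of the 159 rises of at least 2-fold, 73 rose further, 21 fell and 65 were not called. Of the 182 falls, 58 fell further, 9 rose and 115 were not called. Pde6a (0.93), Opn1mw (0.76), Aqp4 (0.70) and Prph2 (0.65) rose again, whereas Gnat1 (0.31, adjusted p = 0.2), Pcp2 (-0.01) and Cabp5 (-0.07) were not called. These 3 had means of 11.78, 11.35 and 10.80 at PN9 and of 13.65, 11.89 and 11.34 at PN11, so that they were higher before the later interval began. Vsx1 and Isl1, bipolar factors that had risen by 1.83 and 1.72, fell by 0.32 and 0.52. Mki67 differed by -0.10 (adjusted p = 0.662), while Sox11, a factor of immature neurons that fell in the first interval, fell by a further 0.82.

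**Figure D4:**
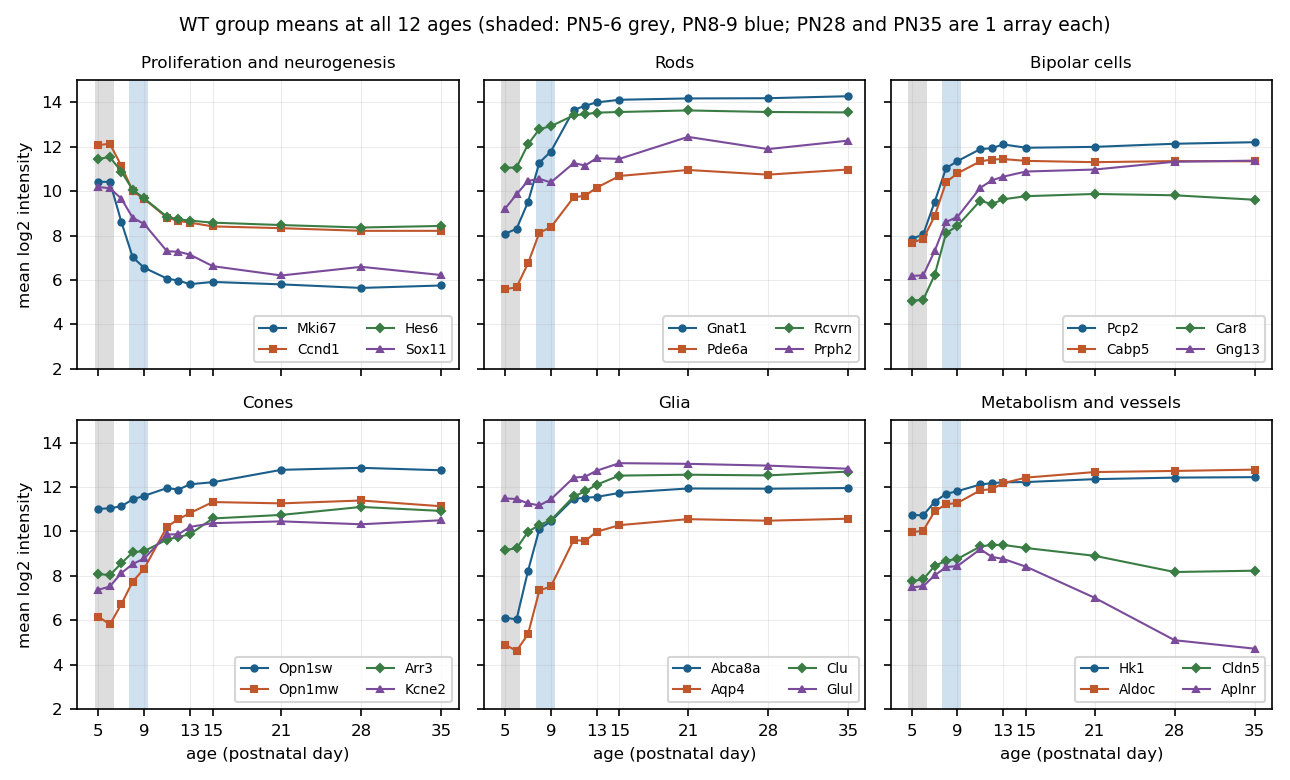
Mean log2 intensity (y) of 24 genes in WT at all 12 ages in postnatal days (x), with the early and late groups shaded; PN28 and PN35 are 1 array each and the other points are means of 2 or 3 arrays. Mki67 and Hes6 drop little after PN11, Opn1mw and Clu climb to PN15, and Aplnr climbs to PN11 and then drops.

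In rd1 retinas the genes with the largest WT changes were called in the same direction. Between the same ages 2617 genes rose (14.4%) and 2704 fell (14.9%) in rd1, with no array shared with WT. All 159 rises and all 182 falls of at least 2-fold in WT were called in the same direction in rd1, with medians of 1.19 and -1.1. Genes called in both numbered 4706, 59% of the WT calls and 88.4% of the rd1 calls, and 4705 of them had the same sign. Over all 18193 genes, which share array design and normalization, the changes correlated at r = 0.932. The mutated gene Pde6b itself rose by 0.45 ± 0.13 in rd1 against 0.99 in WT, a difference of -0.54 ± 0.19 that was not called (adjusted p = 0.775). Its rd1 arrays read 9.53 to 11.09 early and 10.81 to 11.32 late, so that the groups overlapped. Gnat1 rose by 3.07 in rd1 and Mki67 fell by 3.06.

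The test of the difference in change called 4 genes (0.022%), 2 with the higher change in rd1 (0.011%) and 2 with the lower (0.011%). At an unadjusted p under 0.05 it gave 1096 genes (6.02%). The muscle genes Acta1 (difference -1.13 ± 0.17, adjusted p = 0.000941) and Tnnc2 (difference -1.04 ± 0.18, adjusted p = 0.0141) had the lower change in rd1, where they fell. Acta1 read 8.79 and 8.00 at PN5, 7.83 and 6.90 at PN6, and 7.03 to 7.49 late, so that 1 early array lay below every late one. The muscle list mean was 6.72 and 6.34 in the rd1 PN5 arrays, 6.26 and 5.92 at PN6, and 5.79 to 5.96 in the early WT arrays; its part in this result was not tested. Fos, an immediate early transcription factor, rose by 1.19 ± 0.12 in rd1, against 0.26 in WT (difference 0.93 ± 0.17, adjusted p = 0.027). Its rd1 arrays read 7.24 to 7.67 early and 7.93 to 9.21 late, those at PN9 being 8.84 to 9.21. Cdc6, which loads the replicative helicase, fell by 0.54 in rd1 and 1.09 in WT (difference 0.56 ± 0.11, adjusted p = 0.0388), its early arrays being 4.51 to 5.09 in rd1 and 5.05 to 5.53 in WT. The count was 17 without WT PN8 replicate 3, 16 without rd1 PN6 replicate 2, 7 without rd1 PN5 replicate 1, 1 without rd1 PN6 replicate 1 or rd1 PN8 replicate 3, 2 without WT PN5 replicate 1, WT PN9 replicate 3, rd1 PN8 replicate 1 or rd1 PN9 replicate 2, and 0 when the compared arrays were fitted alone. No interval is given for genes that were not called, and a missed threshold does not show that they changed alike.

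**Figure D5:**
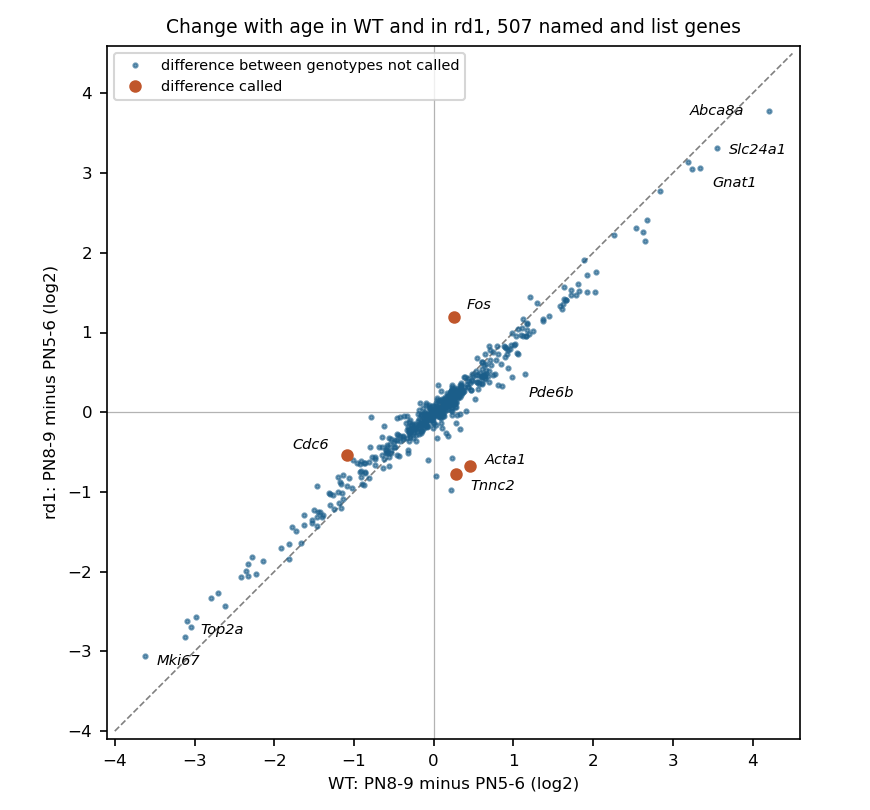
Change from PN5-6 to PN8-9 in rd1 (y) against the change in WT (x), both in log2, for the named and list genes; the dashed line marks equal change and orange points the 4 genes whose change differed between genotypes. Points follow the line from Mki67 at -3.63 and -3.06 to Abca8a at 4.20 and 3.78.

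The genes that moved most were also described by their starting level and by the sequence before their start sites. Rises of at least 2-fold began at a median log2 level of 7.56, near the 7.70 of all genes, and falls of that size at 8.71. The early arrays that give these levels also chose the genes, which by itself favours low starts for rises and high starts for falls. The levels are thus a description. Promoter sequence, taken as the 250 bases before the start site in the RefSeq table for GRCm38.p6, was at hand for 14452 measured genes, and 6 motifs were searched on both strands. A gene with several start sites was counted once, where any of its promoters held the motif. TAATCC, the core that the homeodomain proteins CRX and OTX2 bind, stood in 6.58% of all genes with a promoter. It stood in 12 of 27 (44.4%) of the rod, shared phototransduction and outer segment genes, and in 6 of 17 (35.3%) of the bipolar genes. Among rises of at least 2-fold it stood in 23 of 119 (19.3%), and among falls of that size in 7 of 143 (4.9%). TGCTGAC, from the site that NRL binds, stood in 4.17% of all genes with a promoter. Of the same 27 genes 2 held it (7.41%), both in the rod list. It stood in none of the bipolar genes, in 2 of 25 (8%) of the mitotic genes, and in 4.2% of the rises and 6.29% of the falls of at least 2-fold.

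The motifs known from cell cycle genes were searched in both directions of change. CCAAT, bound by NF-Y, stood in 39.4% of all genes with a promoter. It stood in 19 of 25 (76%) of the mitotic and 17 of 26 (65.4%) of the replication genes. But it also stood in 6 of 8 (75%) of the rod genes and 9 of 17 (52.9%) of the bipolar genes. Of the rod, shared and outer segment genes together 13 of 27 (48.1%) held it. TTTGAA, the cell cycle homology region, stood in 14.1% of all, in 8 of 25 (32%) of the mitotic and 4 of 26 (15.4%) of the replication genes, in 5 of 17 (29.4%) of the bipolar genes and in 2 of the 27 (7.41%). Among falls of at least 2-fold these motifs stood in 53.1% and 23.1%, and among rises in 44.5% and 13.4%. The E2F motifs TTCGCGC and TTGGCGC, which overlap where both strands match, stood in 2.24% and 3.52% of all genes with a promoter. Of the replication genes 7 of 26 (26.9%) and 3 of 26 (11.5%) held them. They stood in 1 of the 27 (3.7%) each, and in none of the bipolar genes. The ratio of observed to expected CpG was averaged over the promoters of each gene. Its median was 0.30 for the rod, shared and outer segment genes and 0.27 for bipolar genes. For mitotic genes it was 0.80, and over all genes with a promoter 0.62. These are descriptions of letters, with no test, and do not show that a factor was bound.

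Promoters of 2 genes that rose and 3 that fell let the motifs be read in place, printed 5′ to 3′ in the direction of the gene, with all matches to the 6 motifs in capitals. Cabp5 (chr7:13397905-13398154, plus strand) and Aipl1 (chr11:72037510-72037759, minus strand) rose and hold TAATCC, read as GGATTA on the other strand in Aipl1; Cabp5 also holds 3 matches to CCAAT and 2 to TTTGAA. Mki67 (chr7:135716380-135716629, minus strand), Top2a (chr11:99024190-99024439, minus strand) and Mcm6 (chr1:128359706-128359955, minus strand) fell and hold CCAAT, read as ATTGG on the other strand, with TTTGAA in Mki67 and Top2a and E2F motifs in Mki67 and Mcm6.
Cabp5: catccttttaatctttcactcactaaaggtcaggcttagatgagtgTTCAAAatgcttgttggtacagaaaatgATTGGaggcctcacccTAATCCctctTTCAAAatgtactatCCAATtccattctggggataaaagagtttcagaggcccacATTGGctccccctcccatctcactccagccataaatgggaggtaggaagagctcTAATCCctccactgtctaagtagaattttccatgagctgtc
Aipl1: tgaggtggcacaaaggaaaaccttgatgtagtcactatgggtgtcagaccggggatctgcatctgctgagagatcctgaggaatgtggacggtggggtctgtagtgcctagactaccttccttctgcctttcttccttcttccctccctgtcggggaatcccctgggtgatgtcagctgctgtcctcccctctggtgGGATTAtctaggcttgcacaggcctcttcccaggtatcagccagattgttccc
Mki67: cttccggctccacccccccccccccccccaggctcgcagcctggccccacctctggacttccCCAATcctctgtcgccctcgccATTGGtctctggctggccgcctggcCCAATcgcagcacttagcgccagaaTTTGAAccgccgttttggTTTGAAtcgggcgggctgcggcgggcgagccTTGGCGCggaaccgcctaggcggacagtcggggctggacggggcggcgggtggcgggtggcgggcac
Top2a: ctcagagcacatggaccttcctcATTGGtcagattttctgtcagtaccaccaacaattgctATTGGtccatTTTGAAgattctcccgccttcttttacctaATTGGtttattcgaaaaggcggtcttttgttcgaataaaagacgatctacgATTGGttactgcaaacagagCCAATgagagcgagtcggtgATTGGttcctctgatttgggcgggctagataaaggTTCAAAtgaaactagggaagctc
Mcm6: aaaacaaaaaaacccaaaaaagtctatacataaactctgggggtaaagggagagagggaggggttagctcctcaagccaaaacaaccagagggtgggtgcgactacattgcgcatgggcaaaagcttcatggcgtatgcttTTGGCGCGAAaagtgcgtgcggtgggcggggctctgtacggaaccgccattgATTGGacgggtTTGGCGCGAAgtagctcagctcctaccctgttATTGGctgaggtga
In Cabp5 TAATCC begins 160 and 41 bases before the start, and in Aipl1 its match begins 53 bases before it. In Top2a CCAAT or its complement occurs 6 times. In Mcm6 the letters TTGGCGCGAA, which hold both E2F motifs at once, occur 109 and 46 bases before the start.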

How the data were processed

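Neural retina RNA was hybridised as biotin-labelled cRNA to a 3' oligonucleotide array, 1 sample per array. The deposited intensity values were summarised by RMA, per the submitters' processing notes, and lie on a linear scale; the version and the arrays normalized together are not given in the sources used here. They were taken to log2. Of 45037 probe sets, 34945 had 1 gene symbol, 932 several and 9160 none; symbols were updated through Entrez numbers in the RefSeq table for GRCm38.p6, and the probe set with the highest mean over all arrays stood for each of 18193 genes.

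limma 3.58.1 in R 4.3.3 fitted 1 mean per genotype and age to the 50 arrays of the 10 ages with replicates (30 residual degrees of freedom, eBayes with an intensity trend), with Benjamini-Hochberg adjustment over all genes and a threshold of 0.05. The scripts were tested on simulated data. Python 3.11.15, pandas 2.3.3 and matplotlib 3.10.9 did the rest. Alternatives were quantile normalization, centring on amacrine and ganglion genes, no dim genes, mean of probe sets, no trend, array weights, replicate block, the compared arrays alone and single arrays left out; PN8 or PN9 alone as the late group and the midpoint test were added after the data were seen.

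Gene lists and members were chosen with earlier results of these data known. Named by rule were the 10 largest rises and falls without overlap between groups, up to 4 members per list by size, called ones first, the 3 largest called changes each way per other contrast, and Ccnd1, Mki67, Top2a, Crx, Nrl, Pde6b, Opn1sw, Opn1mw, Glul, Rlbp1 and Aqp4. Other members were chosen after their values were seen.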

Additional observations from a re-analysis of the deposited data

Results flagged for a closer look

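In 72 of 384 groups of values, 1 array lay farther from the others than Dixon's 95% critical value allows. Chance gives about 1 in 20 such groups where all arrays come from a single population. Each group here pooled PN5 with PN6 or PN8 with PN9, so that rate need not hold, and genes of an array are not independent. WT PN8 replicate 3 was the outlying array in 54 of the 72 groups.

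The values of WT PN8 replicate 3 flagged as beyond Dixon's critical value follow, with its log2 intensity. The array was also lowest or highest late for genes that were not flagged, such as Impg1 (8.24, others 8.70 or above) and Birc5 (5.91, others 5.58 or below). The photoreceptor genes flagged with it as the lowest late array were Abca4 (11.20), Aipl1 (11.55), Bbs7 (9.22), Cngb1 (10.90), Esrrb (8.00), Gnat1 (10.15), Guca1b (8.76), Opn1mw (6.80), Opn1sw (11.19), Pde6a (7.45), Pde6b (12.55), Pde6g (12.75), Rcvrn (12.39), Rdh12 (10.67), Rgs9bp (10.11), Sag (13.86) and Slc24a1 (8.78). Genes of synapses and bipolar cells with the same pattern were Cabp4 (7.63), Cabp5 (9.61), Cacna1f (9.43), Cplx4 (9.72), Gng13 (7.75), Pcp2 (10.29) and Prkca (11.23). Other genes flagged as lowest in this array were Abca8a (9.40), Calb1 (8.77), Cav1 (8.59), Cldn5 (8.46), Clu (9.91), Dio2 (5.95), Drd4 (7.40), Hk1 (11.39), Nefh (8.52), Qpct (8.83) and Trnp1 (11.78). It was flagged as the highest late array for the division, progenitor and neurogenic genes and the other early genes Ccnd1 (10.52), Cks2 (8.07), Dll3 (8.67), Fabp7 (12.37), Mki67 (7.59), Mybl1 (8.93), Neurog2 (9.14), Notch1 (10.66), Onecut2 (8.37), Pbk (6.26), Six6 (9.86) and Sox11 (9.28). The list means flagged as lowest in this array were rod phototransduction (10.41, others 10.98 to 11.14), shared phototransduction and recovery (10.62, others 10.98 to 11.09), cone (8.86, others 9.03 to 9.11), ribbon synapse (10.17, others 10.47 to 10.57) and bipolar (8.49, others 8.93 to 9.05). Those flagged as highest in it were progenitor (9.30, others 9.01 to 9.08) and neurogenic factors (9.67, others 9.29 to 9.39). Some list means that were not flagged also had this array at an end, such as outer segment structure (10.93, others 11.13 or above) and G2 phase and mitosis (6.65, the highest late mean). Genes that rose were thus low in this array and genes that fell were high; the results without it stand beside the counts they touch.

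The remaining outlying values were scattered. WT PN5 replicate 1 stood out in Grk1 (lowest, 7.09), Mybl1 (highest, 10.52), Onecut2 (lowest, 8.76) and Psma5 (highest, 11.09). WT PN5 replicate 2 stood out in Glra1 (lowest, 4.78), Guca1b (lowest, 8.04), Hes5 (highest, 10.60), Mcm3 (highest, 7.30) and mean of the cell cycle inhibitors list (lowest, 10.04). WT PN6 replicate 1 stood out in Gngt2 (lowest, 7.03), Rps19 (lowest, 12.05), Six6 (lowest, 10.09) and mean of the cilium transport list (lowest, 9.44). WT PN6 replicate 2 stood out in Cdc45 (highest, 7.69), E2f7 (lowest, 6.77) and Pde6b (highest, 11.88). WT PN8 replicate 1 stood out in Rp2 (lowest, 7.01). WT PN8 replicate 2 stood out in Tnnc2 (highest, 5.92).

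The change between these ages differed between rd1 and WT, by a test of the difference itself, for Acta1 (-1.13), Tnnc2 (-1.04), Fos (0.93) and Cdc6 (0.56), each given as the rd1 change minus the WT change in log2 units with limma.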

How the results depend on the processing

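For the change from PN5-6 to PN8-9, every alternative kept the count of calls within 1.5 times of 7973, and leaving out single arrays gave 6324 to 8288. Named genes gave 3202 values under the alternatives, of which 3083 kept their direction and side of the threshold, 96 lost and 13 gained the call, and 10 turned direction. Those were Epb42 (0.05 as the mean of all probe sets, 0.06 against PN9 alone, -0.08 to 0.05 with single arrays left out) and, from PN7 to PN8-9, Crybb1 (-3.13 to 0.10), Crybb3 (-3.23 to 0.02) and Crygn (-2.98 to 0.18), which turned without WT PN7 replicate 3. Fitting the compared arrays alone, which leaves fewer residual degrees of freedom, gave 1767 calls from PN7 to PN8-9, 0 for rd1 against WT and 15 for PN7 against the midpoint. Leaving out the dimmest 30% of genes gave 2 calls for rd1 against WT. The midpoint gave 46 calls under quantile normalization, 36 after centring and 156 with array weights; the cause was not tested. With single arrays left out, calls ranged from 0 to 4 (PN5 to PN6), 1634 to 2671 (PN5-6 to PN7), 1786 to 2913 (PN7 to PN8-9), 4113 to 5404 (rd1), 1 to 17 (rd1 against WT), 3451 to 4534 (later interval) and 8 to 152 (midpoint), and stayed at 0 for PN8 to PN9. The share of rises among calls moved from 66.9% to 51.5% (quantile) and 51.3% (centred) for PN7 against PN5-6, from 36.1% to 48.3% and 25.9% from PN7 to PN8-9, and after centring from 49.2% to 37.9% in rd1 and from 45.7% to 17.9% in the later interval. With the replicate number as a replicate block 7555 genes were called; deviations of same-numbered arrays correlated above 0.1 in 8 of 13 pairs (r from -0.33 to 0.42), not in all, so the numbers were not taken to pair arrays. The small number of arrays limits the precision.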

Other observations

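Many of the largest changes lay outside the gene lists: 109 of the 159 genes with rises of at least 2-fold and 134 of the 182 with falls of that size were in none. The genes given here were chosen after their values were seen. Among the rises, Trnp1, a nuclear protein known from cortical progenitors, went from 9.60 to 9.74 in the early arrays to 11.78 to 12.24 in the late ones (2.43 ± 0.08). Cav1, the coat protein of caveolae, rose by 2.41 ± 0.13 and Qpct, glutaminyl cyclase, by 2.37 ± 0.11. Vtn, the matrix protein vitronectin, rose by 1.88 ± 0.09 and by a further 1.09 between PN11 to PN13 and PN15 and PN21. The dopamine receptor Drd4 rose by 1.70 ± 0.17, the glycine receptor subunit Glra1 by 1.38 ± 0.12, and Dio2, the deiodinase that activates thyroid hormone, by 1.50 ± 0.16. Drd4 varied most among these in the late arrays, from 7.40 to 9.48, with WT PN8 replicate 3 the lowest. Calml4, a calmodulin-like protein, rose by 1.53 ± 0.10 and then fell by 1.81 in the later interval.

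Among the falls, Hmgb2, a chromatin protein of dividing cells, went from 11.15 to 11.31 early to 8.82 to 9.45 late (-2.27 ± 0.11). Ect2, which positions the cleavage furrow, fell by 2.18 ± 0.12 and E2f7, a repressor of the E2F family, by 1.68 ± 0.09. The Myb family members Mybl1 and Myb fell by 2.27 and 1.44, Myb by another 1.05 in the later interval. Insm2, a zinc finger protein, fell by 2.03 ± 0.12, and Robo3, an axon guidance receptor, by 1.86 ± 0.10.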
